A study of Arabidopsis with 12 samples.

Results

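The genes described here are the nuclear genes of *Arabidopsis* whose transcripts were more abundant in the *wlim2a-1* mutant than in WT without a stimulus and again after treatment with flg22. They were chosen from the measured values. A gene was taken where FPKM + 1 was at least 2-fold higher in *wlim2a-1* than in WT both in mock and after flg22, with an FPKM (fragments counted relative to transcript length and library size) of at least 1 in at least 1 condition. Of 27371 loci, 27161 are nuclear and 19182 of these passed the minimum of 1 FPKM. The rule found 57 genes, 8 of which the rule leaves out by name, and the remaining 49 are described. The genotype differences of these 49 genes are therefore a description of how they were chosen and not a test.

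RNA came from whole seedlings, 14 days old, of the Col-0 WT and of *wlim2a-1*, a CRISPR-Cas9 line in which a small insertion shifts the reading frame of *WLIM2A*, the gene of an actin-bundling LIM protein. Seedlings grown on ½ MS agar were kept overnight in liquid medium and given 1 µM flg22, a peptide of bacterial flagellin, or water (mock) for 1 h. There were 3 biological replicates in each of the 4 groups (each genotype in mock and after flg22), 12 samples in all. The values hold 1 FPKM per gene and group, in which the authors had combined the replicates, and therefore every value stands without an SD, a test or an interval. Where a pair of values is given for a genotype, mock comes first and flg22 second. Only 1 mutant line was sequenced, so a difference owed to WLIM2A and a difference carried by the line for another reason cannot be told apart. Whole seedlings were used, so more RNA per cell and more cells of a type that holds the transcript cannot be told apart either.

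As background, plants keep many defense genes at a low level until a pathogen is perceived. Salicylic acid (SA) marks the arm of immunity directed mainly at pathogens that feed on living tissue, and its response includes small pathogenesis-related proteins and receptor-like kinases. Jasmonate, often together with ethylene, marks the response to wounding and to fungi that kill tissue, and its outputs include the antifungal plant defensins. Perception of flg22 sets off a fast wave of transcription that includes enzymes of indole-derived defense compounds and of detoxification.

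In mock, 784 of the 19182 nuclear genes (4.09%) exceeded WT by 2-fold or more in *wlim2a-1* and 111 (0.579%) were lower to that extent. After flg22, 196 genes (1.02%) were higher in the mutant and 65 (0.339%) were lower. The 2 comparisons share no samples, and the 57 genes common to both (0.297% of the tested genes) made up 7.27% of the first list and 29.1% of the second. In the opposite direction, 18 genes (0.0938%) were lower in *wlim2a-1* in both treatments. The median FPKM of the 49 genes was 2.22 (mock) and 3.43 (flg22) in WT against 13.1 and 12.9 in the mutant. On the scale of log2(FPKM + 1), used for all differences below, the median difference between the genotypes was 1.68 in mock and 1.57 after flg22, beside 0.01 and −0.02 for all tested nuclear genes.

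**Figure D1:**
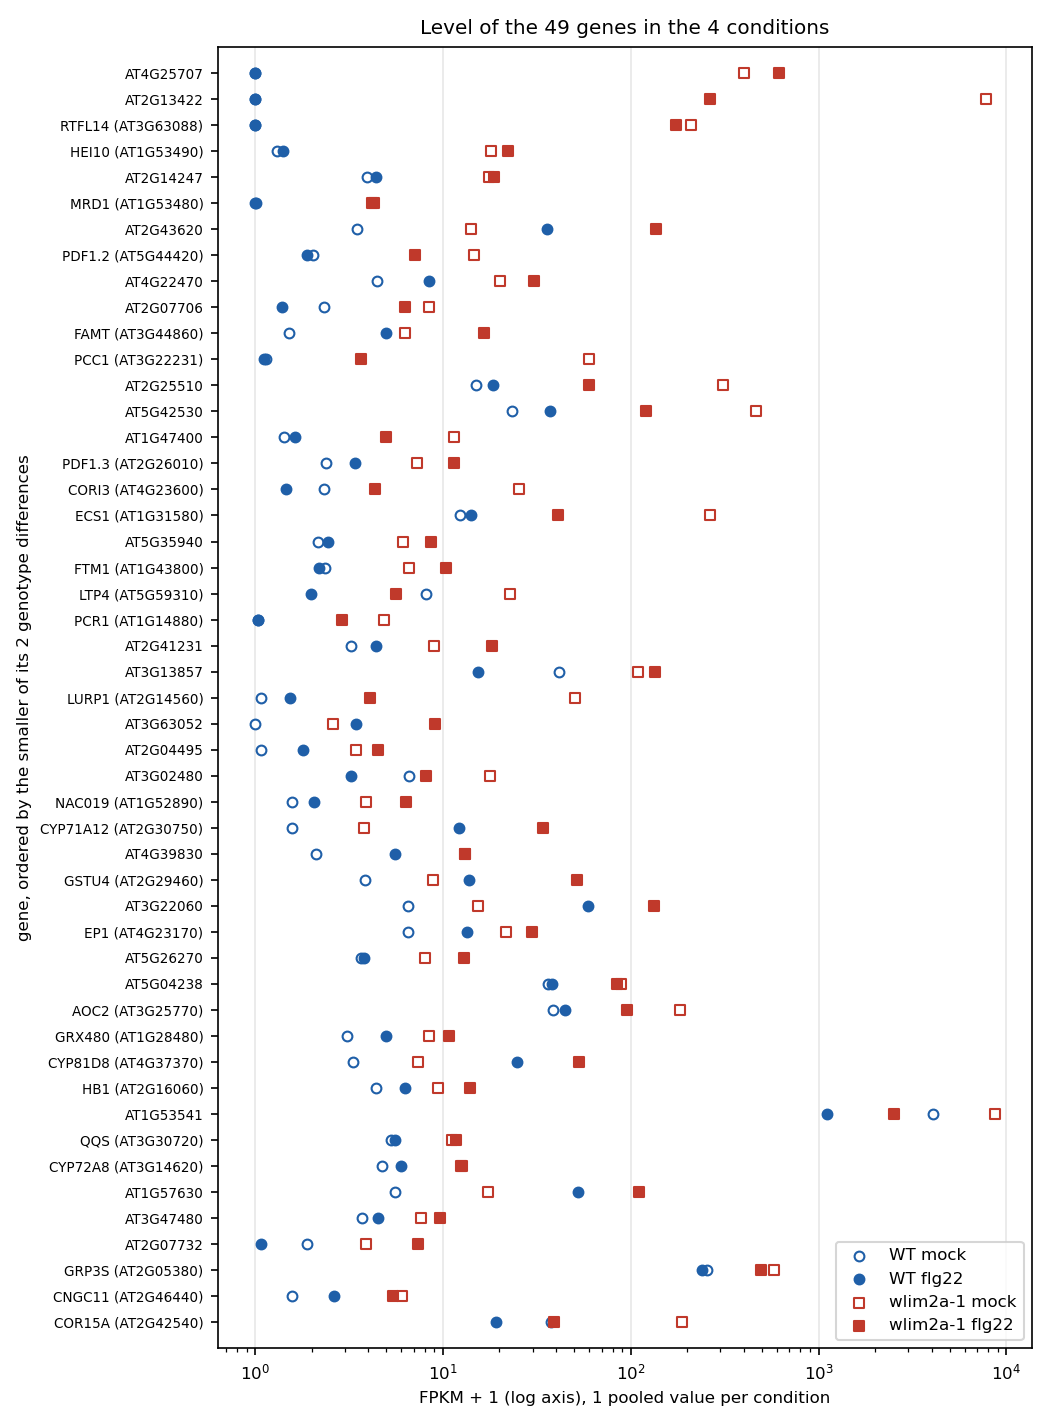
FPKM + 1 on a log axis for each of the 49 genes, with blue circles for WT and red squares for *wlim2a-1*, open in mock and filled after flg22. Each symbol is the authors' single value for a condition, and for 40 of the 49 genes both red symbols lie to the right of both blue symbols.

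In 40 of the 49 genes, both mutant values were above both WT values. In 7 genes, WT flg22 was at or above *wlim2a-1* mock, so that treated WT reached at least the level of the unchallenged mutant. The genotype difference was larger in mock for 30 genes and larger after flg22 for 19. The differences lay within 0.5 of each other for 26 genes. The mock difference exceeded the later one by at least 1 for 11 genes, and the reverse held for 2, AT3G13857 and AT2G07732.

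**Figure D2:**
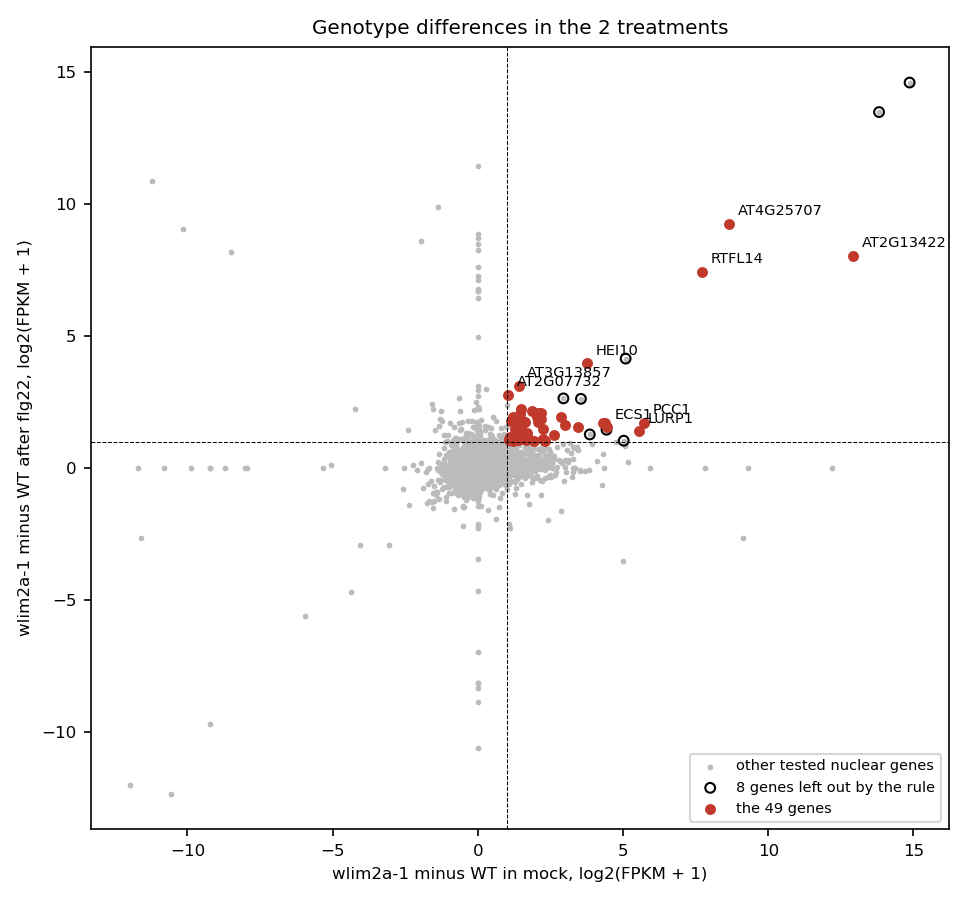
Mutant minus WT in mock (horizontal axis) and after flg22 (vertical axis), both in log2(FPKM + 1), for all tested nuclear genes (gray), the 49 genes (red) and the 8 genes left out (open circles). Dashed lines mark a difference of 1, the threshold that chose the red points, and by that choice every red point lies beyond both lines.

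Genes tied to SA and pathogen responses were among the widest differences in mock. *LURP1* (AT2G14560), named for its late rise during infection by the oomycete *Hyaloperonospora*, had 0.0794 (mock) and 0.539 (flg22) FPKM in WT against 49.7 and 3.07 in the mutant. *PCC1* (AT3G22231), a small protein named for its control by pathogens and the circadian clock, had 0.138 and 0.120 FPKM in WT against 59.1 and 2.67 in the mutant. Both transcripts were near absent from WT and abundant only in the unchallenged mutant, where their differences from WT were 5.55 and 5.72. *ECS1* (AT1G31580), a small protein of the cell wall, was already expressed in WT, with 11.3 FPKM in mock and 13.0 after flg22. The mutant had 263 FPKM in mock and 40.0 after flg22, which is 23.4-fold and 3.07-fold above WT.

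Other genes of this kind differed less. *GRX480* (AT1G28480), a glutaredoxin that binds TGA transcription factors and acts between SA and jasmonate signaling, had 2.08 (mock) and 3.999 (flg22) FPKM in WT against 7.47 and 9.71 in the mutant. *EP1* (AT4G23170), also annotated as the cysteine-rich receptor-like kinase *CRK9*, had 5.52 and 12.5 FPKM in WT against 20.7 and 28.9 in the mutant. For these genes flg22 and the mutation both went with a higher level, and the mutant treated with flg22 was highest. *CNGC11* (AT2G46440), a cyclic nucleotide-gated channel, had 0.573 and 1.63 FPKM in WT against 5.08 and 4.40 in the mutant, and its relative *CNGC12* had 6.17 and 7.41 FPKM in WT against 8.002 and 9.70 in the mutant. The difference of *CNGC12* between the genotypes was 0.33 in mock and 0.35 after flg22.

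Of the 34 genes in a list of SA and systemic acquired resistance genes, 28 passed the minimum of 1 FPKM. The mutant exceeded WT by 2-fold or more for 16 of these 28 in mock, beside 4.09% of all tested nuclear genes, with a median difference of 1.24 and no gene lower. After flg22, 6 were higher, beside 1.02%, and none was lower, with a median of 0.38. The same background shares apply to the counts of the other lists. Those 6 are also all the list's genes that met the rule in both treatments, and 3 of them, *LURP1*, *PCC1* and *GRX480*, belong to the 49. The list was written with earlier results of these data known.

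A second set of genes was grouped under jasmonate and defensin biology, with earlier results of these data known. *PDF1.2* (AT5G44420), a plant defensin widely used as a marker of jasmonate and ethylene signaling, had 1.02 (mock) and 0.890 (flg22) FPKM in WT against 13.7 and 6.14 in the mutant. *PDF1.3* (AT2G26010), a close relative, had 1.38 and 2.40 FPKM in WT against 6.27 and 10.5 in the mutant. The mutant was above WT for both defensins, with the higher mutant value in mock for *PDF1.2* and after flg22 for *PDF1.3*. The copies *PDF1.2b* and *PDF1.2c* had differences of 1.37 and 0.98 in mock and of −0.01 and 1.07 after flg22. These defensin genes are near-identical and can share reads, so their separate values are uncertain.

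*AOC2* (AT3G25770), an allene oxide cyclase of jasmonate synthesis, had 37.7 (mock) and 43.5 (flg22) FPKM in WT against 181 and 94.9 in the mutant. It was 4.80-fold higher in the mutant in mock and 2.18-fold higher after flg22. Of the other 3 genes of this enzyme, *AOC1* differed by 1.77 in mock and 0.82 after flg22, *AOC3* by 0.42 and 0.65, and *AOC4* by −0.18 and 0.06. The 4 genes of the family thus ranged from −0.18 to 2.23 in mock. *CORI3* (AT4G23600), a gene named for its induction by the jasmonate mimic coronatine, had 1.33 (mock) and 0.459 (flg22) FPKM in WT against 24.3 and 3.33 in the mutant. *FAMT* (AT3G44860), a farnesoic acid methyltransferase, had 0.512 and 3.95 FPKM in WT against 5.28 and 15.6 in the mutant. *NAC019* (AT1G52890), a transcription factor of jasmonate and abscisic acid responses, had 0.580 and 1.05 FPKM in WT against 2.90 and 5.32 in the mutant. Its relatives AT3G15500 and *RD26* differed between the genotypes by −0.03 and 0.17 in mock and by 0.23 and 0.19 after flg22.

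All 21 genes of a jasmonate, wounding and ethylene list passed the minimum. In mock the mutant exceeded WT by 2-fold or more for 11 of them, with a median difference of 1.25 and no gene lower. After flg22, 3 were higher and none was lower, with a median of 0.43. These 3 are also all the list's genes that met the rule in both treatments. *PDF1.2* and *CORI3* are the list's genes among the 49.

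Among the members, 3 enzymes of detoxification or of indole-derived defense compounds were higher after flg22 in WT and higher still in the treated mutant. *CYP71A12* (AT2G30750), a cytochrome P450 that acts on indole-3-acetaldoxime, had 0.569 (mock) and 11.2 (flg22) FPKM in WT against 2.79 and 33.0 in the mutant. *GSTU4* (AT2G29460), a glutathione transferase of the tau class, had 2.83 and 12.7 FPKM in WT against 7.89 and 51.0 in the mutant. *CYP81D8* (AT4G37370), a cytochrome P450, had 2.34 and 23.8 FPKM in WT against 6.39 and 52.1 in the mutant. In all 3 genes WT was lowest in mock, followed by the untreated mutant, then by treated WT, and the treated mutant was highest. *CYP72A8* (AT3G14620), another cytochrome P450, was apart from them, with 3.75 and 4.95 FPKM in WT against 11.5 and 11.6 in the mutant. *CYP71A13*, a close relative of *CYP71A12*, missed the threshold with 0.0921 and 0.188 FPKM in WT against 2.03 and 1.37 in the mutant.

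*COR15A* (AT2G42540), a cold-induced protein that protects chloroplast membranes, had 36.6 (mock) and 18.2 (flg22) FPKM in WT against 187 and 38.1 in the mutant. Its neighbor and close copy *COR15B* had 65.1 and 49.1 FPKM in WT against 237 and 51.7 in the mutant, a difference of 1.85 in mock and 0.07 after flg22. The mock difference of *COR15A* was 2.32, and after flg22 *COR15A* was past 2-fold and *COR15B* was not. The copies can share reads, so their separate values are uncertain. *COR15A* was also the gene nearest to the threshold, at 1.03 after flg22. Among 16 tested genes of a cold, dehydration and abscisic acid list, 11 were at least 2-fold higher in mock and 2 after flg22, with medians of 1.13 and 0.24 and none lower. The 2 higher after flg22 are also all the list's genes that met the rule in both treatments.

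*LTP4* (AT5G59310), a lipid transfer protein, had 7.15 (mock) and 0.995 (flg22) FPKM in WT against 21.7 and 4.596 in the mutant. Treated minus mock was −2.03 for WT and −2.02 for the mutant on the log2 scale, and it kept its genotype difference of 1.48 in mock and 1.49 after flg22. Its neighbor in the family, *LTP3*, differed by 0.44 and 0.81. *GRP3S* (AT2G05380), a glycine-rich protein, was among the most abundant members, with 253 and 239 FPKM in WT against 582 and 493 in the mutant. Its relative *GRP-3* had 804 and 848 FPKM in WT against 1616 and 1013 in the mutant. The difference of *GRP-3* between the genotypes was 1.01 in mock and 0.26 after flg22. *HB1* (AT2G16060), a hemoglobin known for its induction by low oxygen, had 3.42 and 5.29 FPKM in WT against 8.47 and 12.9 in the mutant. The 7 genes of a hypoxia list had median differences of −0.06 in mock and 0.65 after flg22, with 1 and 2 of them past 2-fold upward. Both counts include *HB1* itself.

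*FTM1* (AT1G43800), a stearoyl-acyl carrier protein desaturase, had 1.36 and 1.19 FPKM in WT against 5.62 and 9.35 in the mutant. *PCR1* (AT1G14880), named for cadmium resistance, had 0.0306 and 0.0420 FPKM in WT against 3.87 and 1.88 in the mutant. *QQS* (AT3G30720), a gene with no relatives outside *Arabidopsis thaliana* that affects starch content, had 4.28 and 4.53 FPKM in WT against 10.2 and 10.7 in the mutant. *QQS* gave nearly the same value with and without flg22 in each genotype, so its difference of 1.08 was equal in both treatments.

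*HEI10* (AT1G53490) had the widest difference after flg22 among the members above 0 in all 4 conditions, while 5 of these members, *PCC1*, *LURP1*, *ECS1*, AT2G25510 and AT5G42530, were wider in mock. It encodes a protein of meiotic crossing over, and it had 0.314 (mock) and 0.416 (flg22) FPKM in WT against 17.0 and 21.3 in the mutant. The mutant was 54.1-fold above WT in mock and 51.3-fold after flg22. *MRD1* (AT1G53480), the gene next to it, was listed at 0 in WT mock and had 0.0146 FPKM in WT flg22, against 3.21 and 3.31 in the mutant. The 2 gene models overlap in the RefSeq annotation, so reads of the overlap could count for either. On the other side of *HEI10*, *MUM4*, whose model also overlaps it, differed by 0.31 in mock and −0.08 after flg22, and on the far side of *MRD1*, *MSL4* differed by 0.01 and −0.05. Neither flanking gene reached 2-fold. With flg22, *HEI10* differed from mock by 0.11 in WT and 0.31 in the mutant.

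The 5 members listed at 0 in a condition were *MRD1*, AT4G25707, AT2G13422, *RTFL14* and AT3G63052. AT4G25707 was listed at 0 in both WT conditions and had 401 and 614 FPKM in the mutant. *RTFL14* (AT3G63088), of a family of small peptides, was listed at 0 in WT and had 210 and 172 FPKM in *wlim2a-1*. AT2G13422 was listed at 0 in WT and had 7801 and 264 FPKM in *wlim2a-1*. No fold change is given for these genes, since a listed 0 can be a failed estimate. Among all nuclear genes, 5 were listed at 0 in both WT conditions with at least 100 FPKM in both mutant conditions, and 3 showed the mirror image. *BETA-OHASE 1* and AT4G25710, on either side of AT4G25707, differed by 0.11 and −0.46 in mock, and *GPX5* and AT3G63090, on either side of *RTFL14*, by 0.05 and −0.06 in mock, all under 2-fold. AT3G63052 was listed at 0 in WT mock and had 2.43 FPKM in treated WT, against 1.59 and 8.04 in the mutant.

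The remaining members, without a symbol in the annotation, were named by locus only. AT5G42530 had 22.2 (mock) and 36.4 (flg22) FPKM in WT against 461 and 120 in the mutant. AT2G25510 had 14.0 and 17.4 FPKM in WT against 310 and 58.6 in the mutant. Both resembled *ECS1*, with their peak in the unchallenged mutant and a second, lower level above WT after flg22. AT1G47400, from a list of iron deficiency genes, had 0.429 and 0.623 FPKM in WT against 10.4 and 3.96 in the mutant. Of the 15 genes of that list, 2 were at least 2-fold higher in each treatment, 2 were lower in mock and the medians were 0.04 and −0.01. The 2 higher genes are also all the list's genes that met the rule.

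AT2G43620 had 2.48 (mock) and 34.7 (flg22) FPKM in WT against 13.1 and 136 in the mutant. AT3G22060 had 5.48 and 58.1 FPKM in WT against 14.4 and 132 in the mutant, and AT1G57630 had 4.53 and 51.1 in WT against 16.4 and 109 in the mutant. These loci were higher after flg22 in both genotypes and stood higher in the mutant in either treatment, in the order described for *CYP71A12*. AT4G39830 had 1.11 and 4.53 FPKM in WT against 12.04 and 12.03 in the mutant, so its mutant level was the same with and without flg22. AT4G22470 had 3.44 and 7.46 FPKM in WT against 19.1 and 29.7 in the mutant, while the next listed locus, AT4G22485, differed by −1.54 in mock and 2.25 after flg22.

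AT2G14247 had 2.93 and 3.42 FPKM in WT against 16.6 and 17.7 in the mutant, nearly equal in both treatments. AT2G41231 had 2.22 and 3.43 FPKM in WT against 7.92 and 17.2 in the mutant. AT5G26270 had 2.66 and 2.80 FPKM in WT against 7.07 and 11.9 in the mutant. AT3G02480 had its lower value after flg22 in each genotype, with 5.63 and 2.26 FPKM in WT against 16.8 and 7.16 in the mutant. AT2G04495, AT5G35940 and AT3G47480, all under 10 FPKM in every condition, also lack a symbol. AT2G04495 had 0.0777 and 0.793 FPKM in WT against 2.46 and 3.52 in the mutant. AT5G35940 had 1.17 and 1.43 FPKM in WT against 5.13 and 7.64 in the mutant. AT3G47480 had 2.69 and 3.49 FPKM in WT against 6.67 and 8.64 in the mutant. In all, 12 of the 49 genes stayed under 10 FPKM and 14 reached 100.

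AT2G07706 and AT2G07732 lie in a stretch of chromosome 2 that carries a copy of mitochondrial DNA, so reads from the mitochondria could count for them. AT2G07706 had 1.33 and 0.397 FPKM in WT against 7.45 and 5.28 in the mutant, and AT2G07732 had 0.885 and 0.0749 in WT against 2.89 and 6.41 in the mutant. Of 28 tested loci with identifiers beginning AT2G076 or AT2G077, 10 were at least 2-fold higher in mock and 3 after flg22, with medians of 0.60 and 0.13. Both counts include AT2G07706 and AT2G07732, which were chosen for being higher. The other locus past 2-fold after flg22, AT2G07684, was listed at 0 in WT and had 422 FPKM in the treated mutant. The 58 genes encoded in the mitochondria had medians of 0.51 and 0.09 in the same comparisons, and the 83 encoded in the chloroplast 2.00 and 0.46. The part of organelle RNA in the values of AT2G07706 and AT2G07732 was not tested.

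The responses to flg22 divided the 49 genes. They are described without a test, since the values that give them are those that chose the genes, and the same mock value enters the choice and the response. In WT, 10 genes (20.4%) were at least 2-fold higher after flg22, beside 4.49% of all tested nuclear genes, and 4 (8.16%) were lower, beside 0.407%. In *wlim2a-1*, 9 genes (18.4%) were higher, beside 5.51%, and 13 (26.5%) were lower, beside 3.93%. The median change was 0.20 for WT and 0.09 for the mutant, beside −0.05 and −0.08 for all tested nuclear genes. A high share of genes higher after flg22 in WT was not limited to the 49, since it was 23.5% for the genes higher in mock only and 30.2% for those higher after flg22 only.

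**Figure D3:**
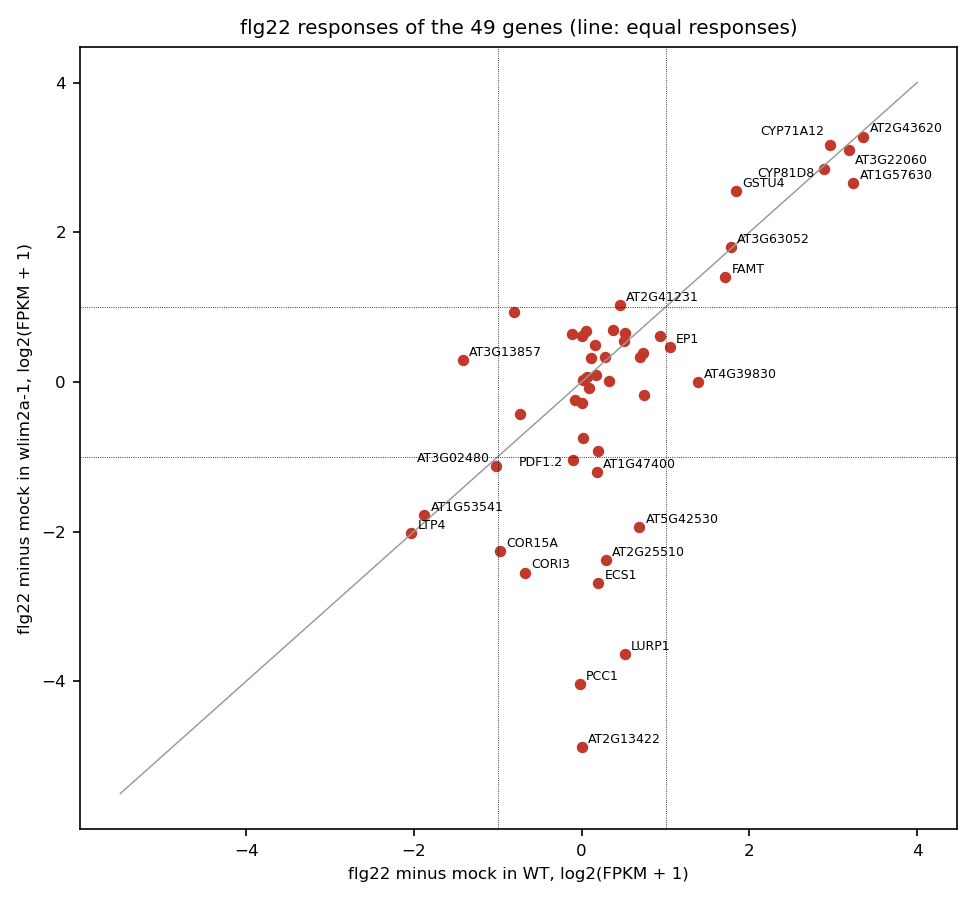
Change with flg22 in WT (horizontal axis) and in *wlim2a-1* (vertical axis), in log2(FPKM + 1), for the 49 genes, with names for genes past 2-fold (dotted lines) in either genotype. Genes on the diagonal responded alike, and 10 genes under 2-fold in WT lie below −1 in *wlim2a-1*.

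On the log2(FPKM + 1) scale 24 of the 49 genes stayed under 2-fold in both genotypes. Some of these changed more in plain FPKM, since the added 1 understates changes of low values. In WT, AT2G07732 had 0.885 (mock) and 0.0749 (flg22) FPKM, and AT2G04495 had 0.0777 and 0.793. The 24 also include AT4G25707 and *RTFL14*, whose WT values were listed at 0, so no WT response could be seen for them. A further 8 were higher after flg22 in both, namely AT2G43620, AT3G22060, AT1G57630, AT3G63052, *CYP71A12*, *CYP81D8*, *GSTU4* and *FAMT*. The change of *CYP71A12* was 2.96 for WT and 3.17 for the mutant, from a higher mock level in the mutant. *LTP4*, AT3G02480 and AT1G53541 were lower in both genotypes.

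In 10 genes the level was lower after flg22 in *wlim2a-1* and under 2-fold in WT on the log2(FPKM + 1) scale. These were *LURP1*, *PCC1*, *ECS1*, *PDF1.2*, *CORI3*, *COR15A*, AT2G25510, AT5G42530, AT1G47400 and AT2G13422. AT2G13422 was listed at 0 in both WT conditions, so no WT response could be seen for it. *PCC1* had 0.138 (mock) and 0.120 (flg22) FPKM in WT, where the added 1 understates a change. For *COR15A* and *CORI3* the WT level fell too, with changes of −0.97 and −0.68. In plain FPKM, without the added 1, both fell by more than 2-fold in WT. *LURP1* rose by more than 2-fold in WT in plain FPKM, from 0.0794 in mock to 0.539 after flg22. The change of *PCC1* was −4.03 in the mutant and −0.02 in WT, and that of *LURP1* was −3.64 and 0.51. AT2G41231 was the only member higher after flg22 in *wlim2a-1* and under 2-fold in WT, at 1.03 and 0.46. *EP1* and AT4G39830 were past 2-fold upward in WT alone, and AT3G13857 downward in WT alone. As the replicates were combined, whether these mock values of *wlim2a-1* came from all 3 replicates or from a single deviating sample cannot be told apart.

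Genes higher in *wlim2a-1* in mock only, 727 in number, had a median change with flg22 of −1.09 for the mutant and 0.10 for WT, and 53.6% of them were at least 2-fold lower in *wlim2a-1*. The 139 genes higher after flg22 only had medians of 2.03 for the mutant and 0.09 for WT. The mutant median of the 49 genes, 0.09, lay between those of these sets, and their WT median, 0.20, was above both. The sets were chosen from the same values, so this order is not a test.

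Length, which the rule did not use, was looked up in RefSeq for all 49 genes. Their median gene length was 1247 bases, against 2328 for all tested nuclear genes with a length, 2774 for the genes higher in mock only and 950 for those higher after flg22 only. Under 300 bases were 4 members (8.16%), namely AT2G13422 with 105, AT1G53541 with 111, AT5G04238 with 195 and AT3G13857 with 239 bases, beside 0.465% of all tested genes. The share was 2.35% for the genes higher in mock only, 15.6% for those higher after flg22 only and 50% for the genes lower in both treatments, 16 of which had a length. FPKM divides by length, so few fragments give a high FPKM at such loci. AT1G53541 had 4088 and 1113 FPKM in WT against 8705 and 2534 in the mutant, the highest level of the 49 genes. Its model overlaps the small nucleolar RNA gene AT1G07897, and AT2G13422 lies within AT2G13420, annotated as a transcribed pseudogene. AT3G13857, whose model overlaps the small nuclear RNA gene *U6-26*, had 40.3 and 14.5 FPKM in WT against 109 and 133 in the mutant. AT5G04238 lies within *ELF6* and had 35.1 and 37.2 FPKM in WT against 87.7 and 83.0 in the mutant, while *ELF6* had 17.1 and 18.2 in WT against 18.6 and 17.3 in the mutant. The part of length in these values was not tested.

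**Figure D4:**
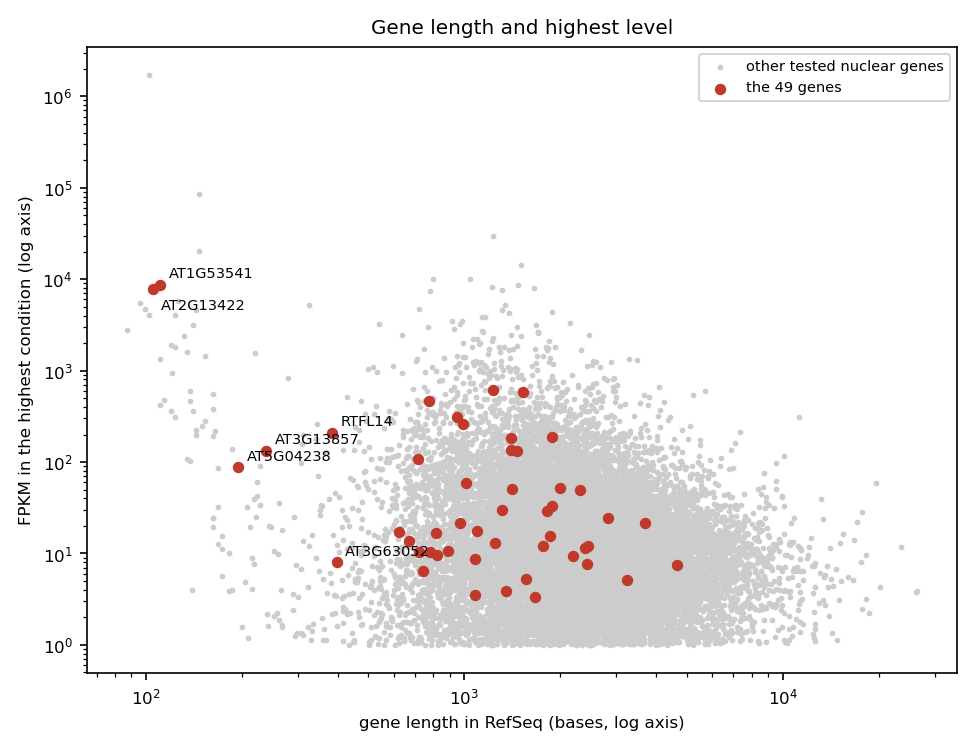
Gene length in RefSeq against the FPKM of the highest condition, both on log axes, for the 49 genes (red) and the other tested nuclear genes (gray), with names for members under 500 bases. The median length was 1247 bases for the 49 genes and 2328 bases for all tested nuclear genes.

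The members lay on all 5 chromosomes, with 10, 16, 11, 6 and 6 genes on chromosomes 1 to 5. Chromosome 2 held 32.7% of them and 15.1% of all tested nuclear genes, and AT2G07706 and AT2G07732 are part of this count. Gene models of 11 members (22.4%) overlapped another gene, beside 31.7% of all tested genes. Of the 98 listed loci next to a member, 72 passed the minimum. The only members next to each other were *HEI10* and *MRD1*. Apart from members and AT1G47395, which met the rule and was left out by name, 69 tested neighbors remained. Of these, 9 exceeded WT by 2-fold or more in the mutant in mock, beside 4.09% of all tested nuclear genes, and 5 after flg22, beside 1.02%. The 9 include *PDF1.2b*, *AOC1* and *COR15B*, relatives of members, and AT2G07705, next to AT2G07706. The 5 include *PDF1.2c*, a relative of *PDF1.2*, and *ORS1*. Relatives and overlapping models can share reads with members. *CRK10*, beside *EP1*, had 3.16 and 11.4 FPKM in WT against 10.9 and 13.2 in the mutant, and *PRB1*, beside *LURP1*, had 8.65 and 2.00 in WT against 5.17 and 8.93 in the mutant. The neighbors *ORS1* and AT2G41231 overlap, and *ORS1* differed by 0.41 and 1.04.

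Around the threshold, the members just inside were *COR15A*, *CNGC11*, *GRP3S*, AT2G07732 and AT3G47480, with a smaller difference of 1.03 to 1.06. Just outside lay AT2G07835 at 0.998, *RLP23* at 0.998, *CYP71A13* at 0.996, AT5G25260 at 0.992 and *MPK11* at 0.988. *RLP23*, a receptor-like protein that recognizes a peptide of microbial NLP toxins, had 0.0785 (mock) and 0.189 (flg22) FPKM in WT against 28.2 and 1.38 in the mutant. *MPK11*, a MAPK, had 0.0773 and 2.64 FPKM in WT against 1.14 and 9.87 in the mutant. Only the position of the threshold keeps these genes apart from the 49.

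Lists of other processes held few or none of the members. None of the 49 was in the lists for heat shock and protein folding, sugar starvation and darkness, phosphate starvation, nitrate, aliphatic glucosinolates, the circadian clock or the early flg22 response. Only 0.297% of all tested nuclear genes met the rule, and these lists hold 4 to 12 tested genes each. Their lack of members is therefore no result about these processes. The 12 early flg22 genes had median genotype differences of 0.38 (mock) and 0.13 (flg22), with 3 and 1 at least 2-fold higher. Medians of the other 6 of these lists lay between −0.46 and 0.75 in mock and between −0.35 and 0.18 after flg22. The 18 light harvesting, photosystem and Rubisco small subunit genes had medians of −0.13 and −0.30, with 2 past 2-fold upward in each treatment. Both of these, *CAB1* and *RBCS1A*, met the rule and were left out by name. They were listed at 0 in both WT conditions, which can be a failed estimate.

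Markers of the parts of a seedling did not stand apart by 2-fold. The 9 root markers summed to 110 (mock) and 109 (flg22) FPKM in WT against 82.5 and 101 in the mutant, and none was past 2-fold between the genotypes. The 5 mesophyll markers summed to 25986 and 20641 FPKM in WT against 21891 and 16836 in the mutant, and the 3 guard cell markers to 28.3 and 26.2 against 32.7 and 20.6, with none past 2-fold. Every root marker was lower in the mutant in mock, and every mesophyll marker in both treatments. The mesophyll markers leave out *CAB1* and *RBCS1A*, which were listed at 0 in both WT conditions. In the mutant *CAB1* had 29857 (mock) and 24963 (flg22) FPKM, and *RBCS1A* had 14401 and 11504. Relatives can share reads, so the separate values of the mesophyll markers and their direction are uncertain. Median differences were −0.38 and −0.10 for root, −0.13 and −0.24 for mesophyll and 0.23 and −0.36 for guard cell markers. None of the 8 seed and 4 pollen markers reached 1 FPKM. *WLIM2A* itself had 12.6 and 11.6 FPKM in WT against 10.9 and 6.20 in the mutant, and a small insertion leaves the transcript countable, so its level does not check the genotype. The upper quartile of the tested nuclear genes was between 20.1 and 21.3 FPKM in the 4 conditions.

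The number of genes depended on the pseudocount. With 5 FPKM added in place of 1, 16 of the 49 genes remained, all of which also stayed under a pseudocount of 0.1 and 3 other scalings. These were *HEI10*, *ECS1*, *AOC2*, *GRP3S*, *RTFL14*, AT4G25707, AT2G13422, AT2G14247, AT2G25510, AT2G43620, AT4G22470, AT5G42530, AT1G57630, AT1G53541, AT3G13857 and AT5G04238. The SA and jasmonate genes *LURP1*, *PCC1*, *PDF1.2* and *CORI3* were not among them. Of the 16, AT4G25707, AT2G13422 and *RTFL14* were listed at 0 in WT. AT2G13422, AT1G53541, AT3G13857 and AT5G04238 are under 300 bases. Staying under a pseudocount of 5 therefore does not make a value reliable.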

How the data were processed

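Seedling RNA was sequenced on an Illumina HiSeq. The labels and the methods describe library preparation differently, and neither says whether quantification used strand. Per the paper's methods, the authors checked reads with FastQC v0.11.5, aligned them to TAIR10 with TopHat v2.1.1, assembled transcripts with Cufflinks and ran Cuffdiff v2.2.1 with quartile normalization. The deposited FPKM are 1 value per gene and condition, and the sources used here name neither the program that wrote them nor the annotation version. No counts or values per replicate were analyzed, so the depth is unknown.

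Values were used as deposited (Python 3.11.15, pandas 2.3.3). Genes reaching 1 FPKM in any condition were compared as log2(FPKM + 1), which understates the change of low genes. Counts use a 2-fold threshold. RefSeq TAIR10.1 matched 26703 loci (97.6%) and served for names, lengths and neighbors. No positions, promoter motifs or sequences are given. Members, lists and groups were chosen with earlier results of these data known. Genes named in full were members of at least 10 FPKM and above 0 throughout (at most 30), members in lists, members listed at 0 and genes nearest the threshold. Other named genes, relatives included, were chosen after their values were seen.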

Additional observations from a re-analysis of the deposited data

How the results depend on the processing

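The values are 1 per condition, so no replicate could be left out. No paired analysis was possible because the values are not given per replicate. The number of genes higher in *wlim2a-1* in both treatments was 49, and it was 133 with a pseudocount of 0.1, 16 with a pseudocount of 5, 183 at a 1.5-fold threshold and 6 at a 4-fold threshold. It was 47 with upper quartile scaling, 65 with scaling to the sum without the largest locus, 57 as a ratio to *ACT2* and *UBQ10*, 46 with at least 5 FPKM in a condition and 49 without the filter. Alternatives added after the data were seen gave 44 without loci listed at 0, 45 without loci under 300 bases and 42 with no pseudocount and at least 1 FPKM in every condition, of which 29 were among the 49.

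The 10 members higher after flg22 in WT became 6 with a pseudocount of 5 and 5 at 4-fold. The 4 lower members became 8 with a pseudocount of 0.1, 8 at 1.5-fold, 1 at 4-fold and 2 without loci under 300 bases. In *wlim2a-1*, the 9 higher members became 16 at 1.5-fold, and the 13 lower became 8 at 4-fold and 6 with no pseudocount and at least 1 FPKM in every condition, which leaves fewer genes. The ratio to *ACT2* and *UBQ10* moved the median flg22 change of all tested genes to −0.54 in WT and −0.63 in *wlim2a-1*. The cause of these shifts was not tested.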
